A study of Mus musculus with 27 samples.

Results

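The genes described here are the fibroblast growth factor (FGF) ligands, their receptors and the Sprouty and Spred inhibitors, measured by RNA-Seq in whole mouse embryos at embryonic day 8.5 (E8.5). They were chosen by name alone, as every gene of the count table called Fgf, Fgfr, Spry or Spred followed by a number and nothing else. This gave 33 of 24065 genes, of which 22 were ligands, 4 were receptors and 7 were inhibitors. Of these, 27 had a mean of at least 10 reads over the 6 embryos and were tested. The question was how their transcript levels differ between WT embryos and embryos without the activity of DNMT3B, one of the enzymes that place DNA methylation during early development.

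The RNA came from 3 WT and 3 Dnmt3b-/- littermates of strain C57BL/6J, with a separate library for each embryo. The study made the mutant allele by crossing mice with a floxed Dnmt3b allele (Dnmt3b-2lox) to a line that expresses Cre recombinase broadly under an actin promoter, which leaves a catalytically inactive allele in all tissues. Libraries were built from total RNA after removal of ribosomal RNA. A whole embryo holds many cell types, so fewer cells of a type and less RNA per cell cannot be told apart in these values.

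Secreted FGF ligands bind receptor tyrosine kinases (Fgfr1 to Fgfr4) together with heparan sulphate, and the bound receptors signal through adaptor proteins, RAS and the MAP kinase cascade. Sprouty and Spred proteins are made in cells that receive the signal and dampen the same cascade, which forms a negative feedback loop. At this stage of mouse development FGF signalling is known for its roles in the tailbud, the somites, the heart fields, the limb-forming region and the boundary between midbrain and hindbrain. A separate group of FGF-related proteins, Fgf11 to Fgf14, lacks a secretion signal, remains inside the cell and is best known for binding voltage-gated sodium channels.

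Each library held between 41489332 and 58470286 counted reads, so that 3 reads corresponded to between 2.37 and 3.49 normalized counts (reads scaled to a common library size). Dnmt3b itself fell in the mutants, with 7263, 13960 and 6280 normalized counts in WT and 4063, 4541 and 4740 in Dnmt3b-/- embryos. Its log2 fold change was -1.04 ± 0.27 (SE), with an adjusted p of 0.0169 by edgeR's quasi-likelihood test, and the call held in 3 of 6 fits with 1 embryo left out. WT embryo 2 carried the highest value, and the change was -0.87 (adjusted p = 0.0552) after removal of a per-library trend on the GC content and length of exons, and -0.61 (adjusted p = 0.104) with the yolk sac marker level as a covariate. The mutant allele of Dnmt3b lacks catalytic exons deleted by Cre. Its gene count cannot separate the lost reads of these exons from a lower transcript level. The embryos also differed in extraembryonic RNA. The summed level of 8 yolk sac endoderm markers, led by Apob, was 57030, 180000 and 20970 in WT embryos 1 to 3 and 41340, 26710 and 11640 in Dnmt3b-/- embryos 1 to 3. All 8 were detected, and 1 of them fell past the threshold. WT embryo 2 thus stood above every other library and Dnmt3b-/- embryo 3 below. The 6 erythroid markers summed to between 11840 (WT embryo 2) and 66620 (WT embryo 3), and none passed the test. Of 7 trophoblast and decidua markers, 4 were at 0 in every library. The other 3 were detected and tested, and none passed. The list, led by Plac1, summed to 399, 579 and 483 in WT embryos 1 to 3 and 1062, 383 and 559 in Dnmt3b-/- embryos 1 to 3. Xist, the RNA of the inactive X chromosome, stood at 14670 and 13450 in WT embryos 1 and 3 and 21850 in Dnmt3b-/- embryo 2, against 3.39 to 10.99 in the others, so both genotypes held embryos of both sexes. Markers of regions that use FGF signals were present. Their counts past the threshold, higher and lower in the mutants, were 0 and 1 of 8 for the tailbud, 0 and 0 of 7 for the midbrain-hindbrain region, 2 and 1 of 7 for the heart, 1 and 0 of 5 for somites and 2 and 1 of 4 for neural tissue, against 17.6% and 18.1% of all tested genes.

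Levels of different genes were compared as FPKM, reads per kilobase of merged exons scaled to the counted reads of the library. In WT embryos 19 of the 32 members with an annotated exon length exceeded 1 FPKM, against 48.7% of all genes. The highest level was that of Spred1, a membrane-associated inhibitor of RAS signalling, at 27.6 ± 1.76 FPKM (SD, n = 3). Fgfr2, the receptor with the highest level, followed at 23.5 ± 1.99 FPKM, and the ranges of these genes overlapped. Next came Fgf15 at 16.5 ± 1.55, Spry2 at 15.5 ± 0.65 and Fgfr1 at 14.2 ± 1.64 FPKM, which did not differ beyond their spread. Spry1 (11.8 ± 1.20) and Fgf17 (8.79 ± 0.98) each stood apart from their neighbours in this order.

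Below them lay Spred2 at 6.16, Fgf8 at 5.35, Fgfr3 at 4.29, Spry4 at 3.24, Spred3 at 2.76, Fgf3 at 2.68, Fgf18 at 2.29, Fgf13 at 1.62, Fgf10 at 1.604, Fgf9 at 1.41, Fgfr4 at 1.39, Fgf4 at 1.07 and Fgf14 at 0.80 FPKM, each overlapping the next in range. The other 12 ligands with a length were at or under 0.27 FPKM. Fgf6, a ligand known from skeletal muscle, and Spry3 had no read in any library, which allows up to 2.37 to 3.49 normalized counts (3 reads). Among the ligands a few genes therefore carried most of the signal. Fgf15 made up 40.6% ± 3.65, Fgf17 21.6% ± 2.40 and Fgf8 13.1% ± 2.21 of the summed FPKM of the secreted ligands in WT embryos (SD, n = 3). An opposite-strand long noncoding RNA covers 28.6% of the exon length of Fgf15, 4.32% of that of Fgf17 and 2.49% of that of Fgfr1, and the strand setting of the counting was not given in the sources used here.

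**Figure D1:**
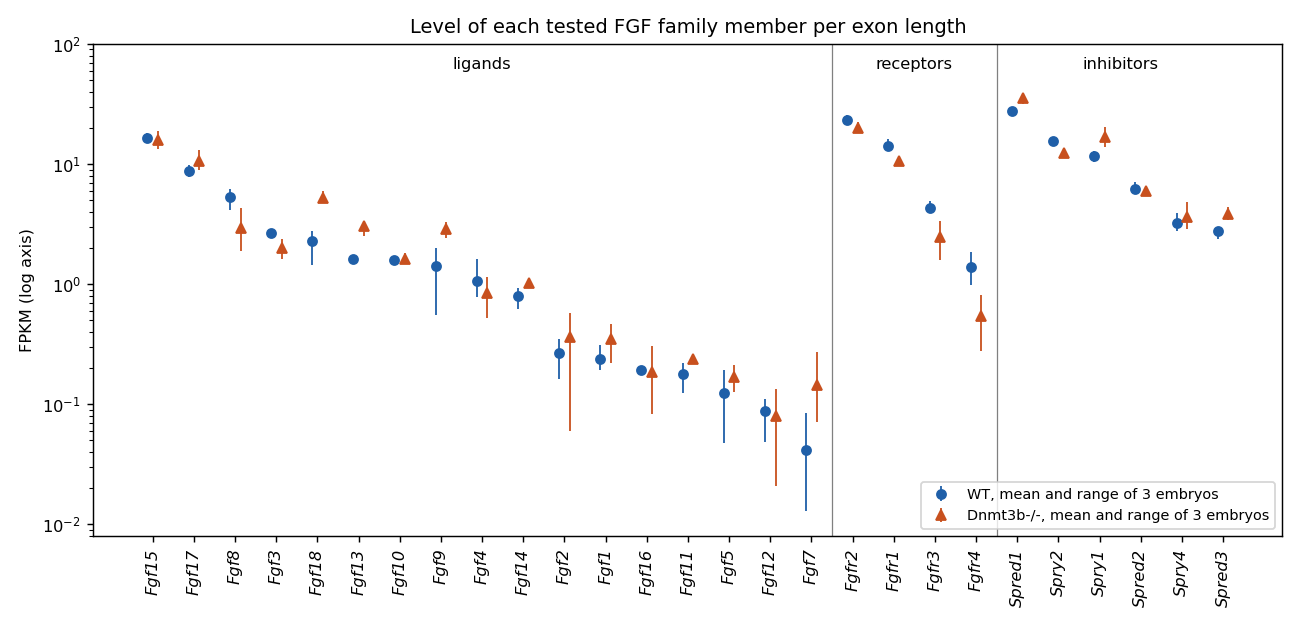
FPKM on a log axis for the 27 tested members, ordered by class and WT level, with WT as circles and Dnmt3b-/- as triangles; markers are means and lines span the 3 embryos. Levels ran from Spred1 at 27.6 to Fgf7 at 0.042 FPKM in WT, and the ranges of the genotypes were apart for Fgf18, Fgf13, Fgfr1, Fgfr3 and Fgfr4 among others.

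Since the study concerns CpG methylation, the CpG content of the members' promoters was read from RefSeq promoter windows on GRCm38.p6, each from 250 bases before to 50 bases after a transcript start. Of the 33 members, 24 had 31 windows. Fgf1, Fgf8, Fgf15, Fgf16, Fgf17, Fgf20, Fgfr1, Spry3 and Spry4 had none, while Fgf12, Fgf13 and Fgfr3 had several each. The median of the 31 windows was 18 CpG, against 7 over all 32851 windows, and they ranged from 3 to 47. Fgf18 held the most, and 1.44% of all windows had as many. The 250 upstream bases are printed here for 3 members that passed the test, 1 from each class, as examples of CpG-rich and more moderate promoters: Fgf18 (chr11:33147401-33147650, minus strand, 37 CpG), Spry1 (chr3:37639697-37639946, plus strand, 23 CpG) and Fgfr4 (chr13:55152568-55152817, plus strand, 15 CpG). No exon of a curated or predicted transcript lies in these stretches. Capitals mark each CpG, and sequences run 5′ to 3′ on the gene's strand. Methylation of these windows was not analysed here.
Fgf18: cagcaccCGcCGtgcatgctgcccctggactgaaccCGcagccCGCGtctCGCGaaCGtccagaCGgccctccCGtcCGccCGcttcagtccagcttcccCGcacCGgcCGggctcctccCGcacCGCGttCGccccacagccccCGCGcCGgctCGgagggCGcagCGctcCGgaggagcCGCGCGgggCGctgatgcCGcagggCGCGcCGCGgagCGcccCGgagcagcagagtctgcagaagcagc
Spry1: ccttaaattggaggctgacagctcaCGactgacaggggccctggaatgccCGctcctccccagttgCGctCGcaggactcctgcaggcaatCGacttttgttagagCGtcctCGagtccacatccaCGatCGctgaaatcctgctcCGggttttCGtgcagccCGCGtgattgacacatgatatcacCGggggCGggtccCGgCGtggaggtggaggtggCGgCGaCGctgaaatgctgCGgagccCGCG
Fgfr4: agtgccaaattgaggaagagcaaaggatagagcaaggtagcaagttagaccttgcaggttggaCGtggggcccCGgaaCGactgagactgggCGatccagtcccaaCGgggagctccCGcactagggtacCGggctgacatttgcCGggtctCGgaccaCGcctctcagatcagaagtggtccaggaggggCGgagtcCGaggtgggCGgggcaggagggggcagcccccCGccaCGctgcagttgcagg

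In the comparison of Dnmt3b-/- with WT embryos, 5 members rose (Fgf18, Fgf13, Spry1, Spred1 and Spred3) and 3 fell (Fgfr1, Fgfr3 and Fgfr4) at an adjusted p below 0.05 by edgeR's quasi-likelihood test. The other 19 tested members passed in neither direction. The 5 that rose were 18.5% of the members tested, against 17.6% of the 15114 genes tested. The 3 that fell were 11.1%, against 18.1%. Both shares were close to or under those of all genes. With a fold above 2 required as well, 2 members were higher (Fgf18 and Fgf13) against 2.12% of all genes, and 1 was lower (Fgfr4) against 3.78%. All mutants lay above all WT embryos in 8 members (29.6%) against 25.3% of genes, and below in 5 (18.5%) against 26.5%. The median log2 fold change was 0.26 over the 27 members and -0.03 over all tested genes.

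By class, the ligands gave 2 higher and 0 lower of 17, the receptors 0 higher and 3 lower of 4 and the inhibitors 3 higher and 0 lower of 6. Over all tested genes the shares were 17.6% higher and 18.1% lower. Classes of 4 and 6 genes are small, and no test was run on the classes. The median log2 fold changes of the 3 classes were 0.43, -0.53 and 0.35. At an adjusted p below 0.01 by edgeR, Fgf18 and Fgf13 remained and no receptor or inhibitor did. These 2 genes also passed the threshold in all 17 other fits tried. Removing from each library a smooth trend of counts on exonic GC content and length moved several values, as the plot of fold changes shows. It is called the GC trend for short, and the parts of GC content and of length in it were not separated. The median exonic GC content of the tested genes was 50.3%. For Spry1, Spred3, Fgf17 and Spry2, whose changes grew with the trend removed, it was 56.2%, 55.4%, 58.1% and 46.2%. The trend was fitted in each library without regard to genotype. A difference between the genotypes that follows exonic GC content or length is therefore removed with it. How much of the removed trend was such a difference was not tested.

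**Figure D2:**
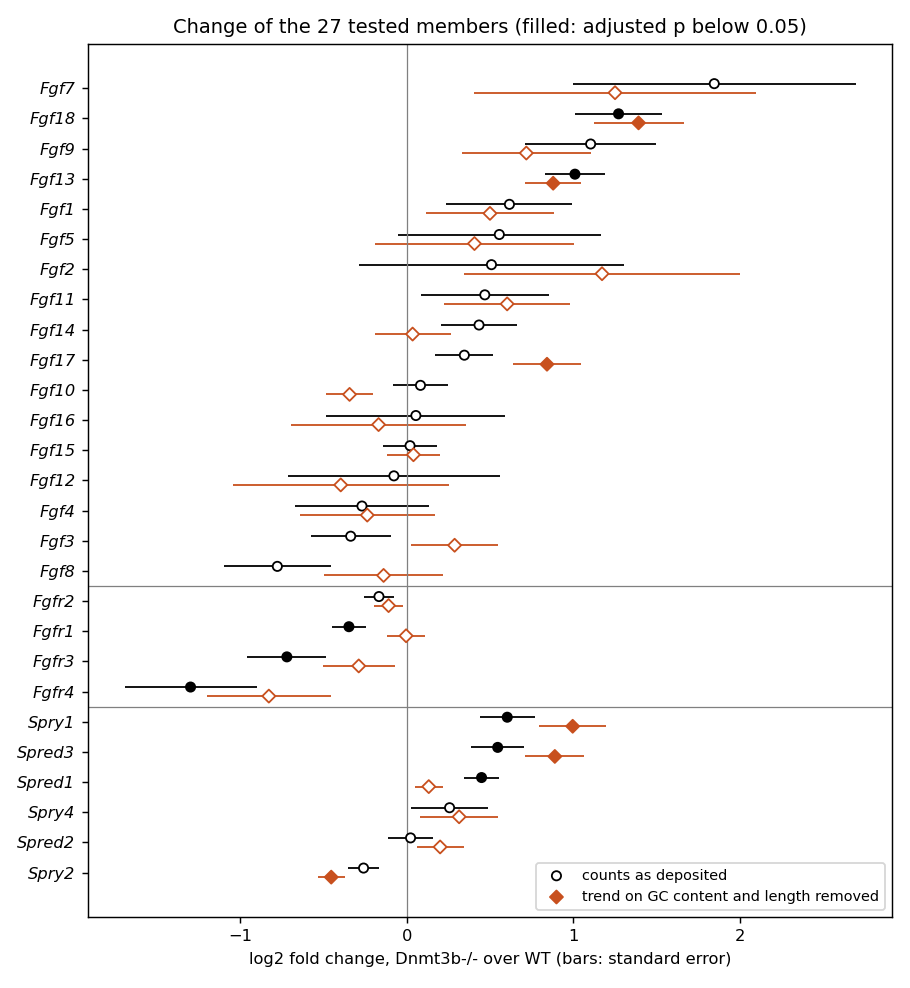
Log2 fold change of Dnmt3b-/- over WT for the 27 tested members, grouped as ligands, receptors and inhibitors from top to bottom, with bars of 1 standard error; circles are from the counts as deposited, diamonds after removal of the GC and length trend, and filled markers have an adjusted p below 0.05. Fgf18, Fgf13, Spry1 and Spred3 were past the threshold in both, while Fgfr1 moved from -0.35 to 0.00 and Spred1 from 0.45 to 0.13.

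Fgf18, a secreted ligand known for its roles in bone, cartilage and lung, is on chromosome 11 (33116970 to 33147400, minus strand). It had 202, 109 and 199 normalized counts in WT and 358, 396 and 481 in Dnmt3b-/- embryos. Every mutant lay above every WT embryo, and WT embryo 2 was the lowest. Its log2 fold change was 1.27 ± 0.26 (2.41-fold higher), with an edgeR adjusted p of 0.00669. Over the other fits it ranged from 0.91, without WT embryo 2 and Dnmt3b-/- embryo 3, to 1.42.

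Fgf8 and Fgf17 belong to the same subfamily as Fgf18, and all are known from the tailbud and the midbrain-hindbrain boundary. Fgf8 had 430, 480 and 318 normalized counts in WT and 149, 208 and 360 in Dnmt3b-/- embryos. Dnmt3b-/- embryo 3 lay within the WT range while the other mutants lay below it. Fgf8 had a log2 fold change of -0.78 ± 0.32, which did not pass (edgeR adjusted p = 0.0919). Without Dnmt3b-/- embryo 3 it was -1.18 (adjusted p = 0.0175), and with the GC trend removed it was -0.14 (adjusted p = 0.81), Fgf8 exons having 61.1% GC. Dnmt3b-/- embryo 3 also had the highest summed level of tailbud markers among the mutants, 15450 against 9745 and 10850, and WT embryo 2 the highest among the WT, 15510. The part of these levels in the Fgf8 values was not tested. Fgf17, with 759, 624 and 697 against 779, 748 and 1118 normalized counts, overlapped between genotypes (log2 fold change 0.35 ± 0.17, adjusted p = 0.154). With the GC trend removed its change was 0.84, past the threshold at an adjusted p of 0.0197.

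Within the summed FPKM of this subfamily, the shares of Fgf8 and Fgf18 differed between the genotypes. Fgf8 made up 31.3%, 40.1% and 26.5% in WT and 11.7%, 15.6% and 18.6% in Dnmt3b-/- embryos. Fgf18 made up 15.1%, 9.34% and 17.0% against 28.9%, 30.3% and 25.5%. Neither share overlapped between genotypes, while the subfamily sum did, at 16.4 ± 1.53 FPKM in WT and 18.7 ± 3.96 in Dnmt3b-/- embryos (SD, n = 3). The shares are parts of a sum, so a rise in any part lowers the rest, and they were not tested. Among all tested genes, the mutants lay above all WT embryos in 25.3% and below in 26.5%. The share of Fgf17 was 53.5% ± 2.94 and 56.5% ± 2.68.

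Fgf9, a ligand known from mesenchyme growth in lung and gonad, had the lowest adjusted p among the secreted ligands after Fgf18. It had 385, 109 and 322 normalized counts in WT and 482, 586 and 695 in Dnmt3b-/- embryos. The groups did not overlap, and WT embryo 2 was again far below the other WT embryos. Its change of 1.104 ± 0.39 on the log2 scale missed the threshold (edgeR adjusted p = 0.0592). It passed in 8 of 17 other fits, among them those without WT embryo 2 (0.73, adjusted p = 0.0188) or without WT embryo 1 (1.44, adjusted p = 0.0454), and was 0.61 (adjusted p = 0.197) with the yolk sac marker level as a covariate and 0.72 (adjusted p = 0.213) with the GC trend removed. Of its subfamily, Fgf16 was level at 25.6 to 28.4 normalized counts in WT and 11.98 to 47.4 in Dnmt3b-/- embryos, and Fgf20 had at most 15 reads in any library.

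Fgf15, the most abundant ligand and a hormone-like FGF known in the embryo from neural tissue and pharynx, had 1294, 1571 and 1327 normalized counts in WT and 1152, 1354 and 1745 in Dnmt3b-/- embryos. The genotypes overlapped, with a log2 fold change of 0.02 ± 0.16 (edgeR adjusted p = 0.934). Fgf3, which acts in inner ear induction, had 152, 147 and 151 against 92.9, 118 and 146 normalized counts. The mutants lay just below the WT embryos, but the log2 fold change of -0.34 ± 0.24 did not pass (adjusted p = 0.311) and was 0.29 with the GC trend removed (adjusted p = 0.455). Fgf3, Fgf4 and Fgf15 lie in this order on chromosome 7 with 18037 and 31286 bases between them and no other gene between, and none of the 3 passed the test. Fgf4, an early epiblast and tailbud ligand, had 109, 235 and 114 against 75.9, 127 and 176 normalized counts, with the highest WT value in the embryo that had the most tailbud marker RNA. Fgf10, the limb and lung bud ligand, ran from 326 to 375 in WT and 330 to 420 in Dnmt3b-/- embryos (log2 fold change 0.08 ± 0.16, and -0.34 with the GC trend removed, adjusted p = 0.118).

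The remaining secreted ligands were low. Fgf1 (35.5 to 56.1 normalized counts in WT, 44.1 to 86.9 in Dnmt3b-/-), Fgf2 (5.29 to 11.4 and 1.997 to 19.8), Fgf5 (5.53 to 22.9 and 14.98 to 27.1) and Fgf7 (1.58 to 10.6 and 8.99 to 36.1) all overlapped between genotypes and had adjusted p between 0.126 and 0.654 by edgeR. For Fgf7 the log2 fold change of 1.85 had a standard error of 0.85. With the GC trend removed, Fgf7 was at 1.25 and Fgf2 moved from 0.51 to 1.17, both short of the threshold (adjusted p = 0.318 and 0.336). Fgf21, Fgf22 and Fgf23 had at most 7 reads in any library and were not tested.

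Among the intracellular FGFs, Fgf13 rose. It lies on the X chromosome (59062139 to 59585572, minus strand) and had 235, 229 and 247 normalized counts in WT and 377, 522 and 534 in Dnmt3b-/- embryos. The WT embryos were close together, and each mutant was above all of them. The log2 fold change was 1.01 ± 0.18 (2.01-fold higher), with an edgeR adjusted p of 0.00365. It was 1.04 with the Xist level as a covariate and 0.88 with the GC trend removed, and stayed between 0.87 and 1.17 in all other fits. Fgf13 has 4 promoter windows, with 3, 6, 37 and 40 CpG, and the counts do not separate its transcripts.

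The other intracellular members did not pass. Fgf14 had 136, 101 and 150 against 181, 163 and 180 normalized counts (log2 fold change 0.43 ± 0.23, edgeR adjusted p = 0.174), and with the GC trend removed the change was 0.04 (adjusted p = 0.927), its exons having 41.7% GC. Fgf11 had 35.5, 20.6 and 31.8 against 40.0, 40.7 and 41.8 (0.47 ± 0.38, adjusted p = 0.376). In both, the mutants lay above the WT embryos without overlap, as in 25.3% of all genes, while Fgf12 overlapped, at 19.5 to 43.2 and 9.04 to 55.8. Fgf13 made up 60.5% ± 4.79 of the summed FPKM of this group in WT embryos. The summed level of the 4 genes was 2.69 ± 0.32 FPKM in WT and 4.42 ± 0.42 in Dnmt3b-/- embryos (SD, n = 3) with no overlap.

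**Figure D3:**
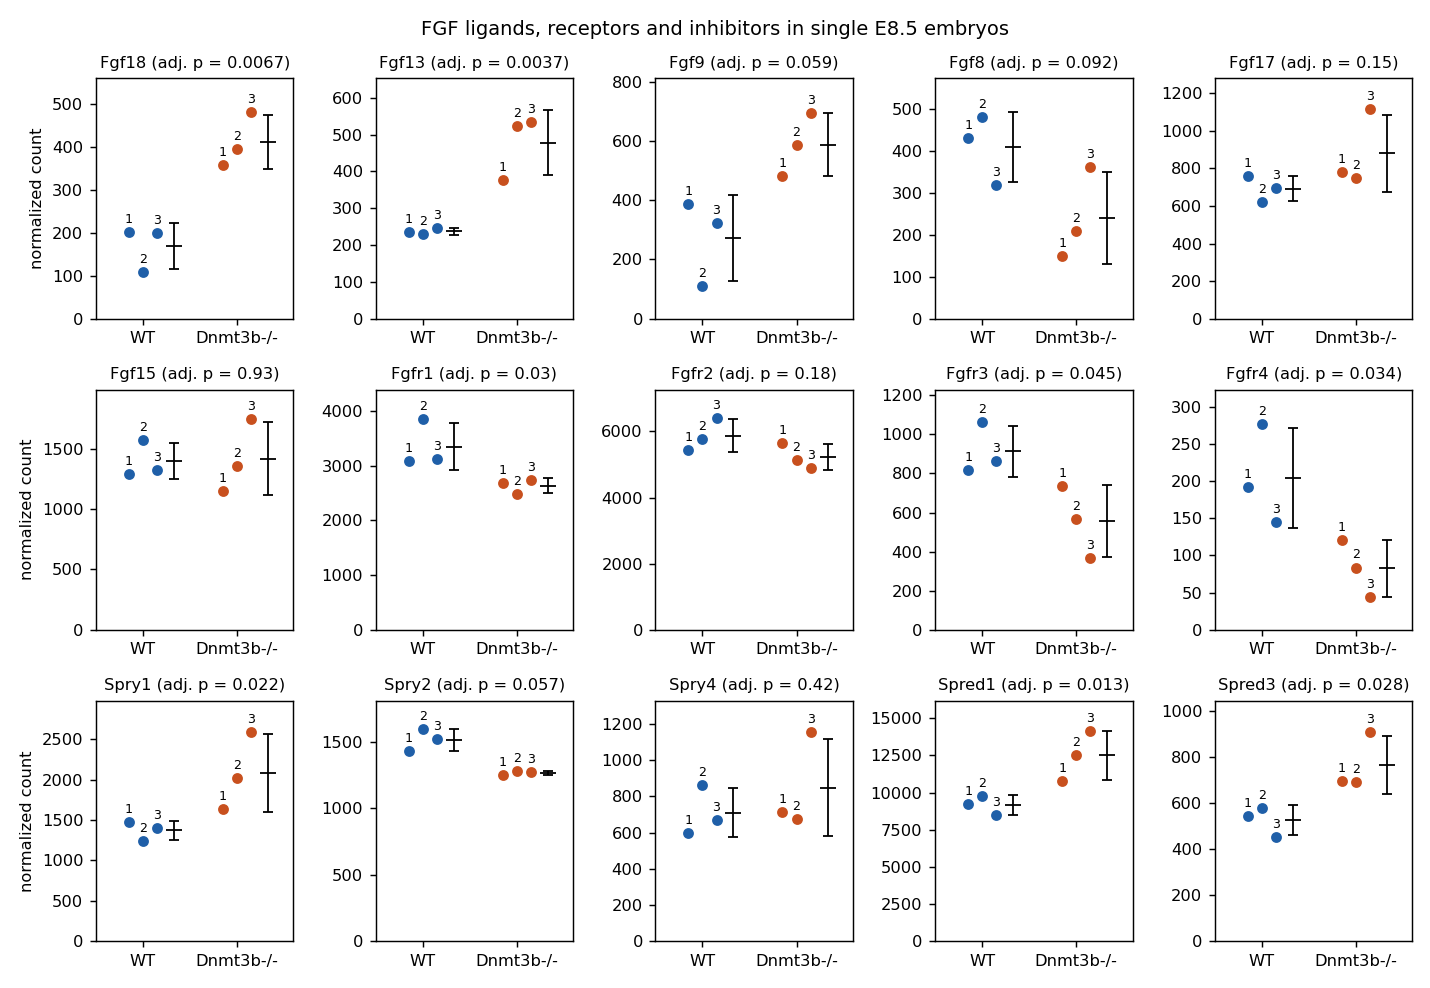
Normalized counts of 15 members in each embryo, with WT in blue and Dnmt3b-/- in orange; numbers are the embryo numbers, the black mark beside each group is its mean ± SD (n = 3), and the edgeR adjusted p is in each title. The genotypes are apart for Fgf18, Fgf13, Fgf9, Fgfr1, Fgfr3, Fgfr4, Spry1, Spry2, Spred1 and Spred3, and overlap for the other 5.

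Of the 4 receptors, 3 fell. Fgfr1, the main receptor of the epiblast and mesoderm (chromosome 8, 25518759 to 25575718, plus strand), had 3077, 3849 and 3117 normalized counts in WT and 2688, 2478 and 2734 in Dnmt3b-/- embryos. All mutants lay below all WT embryos. Its log2 fold change was -0.35 ± 0.10 (edgeR adjusted p = 0.0297).

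Fgfr3, known as a brake on cartilage growth (chromosome 5, 33721724 to 33737068, plus strand), had 816, 1063 and 864 normalized counts in WT and 734, 565 and 366 in Dnmt3b-/- embryos. The groups did not overlap, and the mutants were spread over a wide range. On the log2 scale the change was -0.72 ± 0.24 (edgeR adjusted p = 0.045).

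Fgfr4, the receptor of hepatic and other endoderm (chromosome 13, 55152818 to 55168759, plus strand), had 192, 277 and 145 normalized counts in WT and 121, 83.8 and 44.05 in Dnmt3b-/- embryos. Again no mutant reached the WT range. This gave a log2 fold change of -1.30 ± 0.40 (2.45-fold lower, edgeR adjusted p = 0.0339). Fgfr2, the receptor of surface and endodermal epithelia and the most abundant of the 4, had 5428, 5773 and 6410 against 5664, 5138 and 4897, with overlap (-0.17 ± 0.09, adjusted p = 0.177). The summed level of the receptors was 40.5, 45.7 and 44.1 FPKM in WT and 37.6, 32.5 and 30.6 in Dnmt3b-/- embryos, with no overlap.

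These calls depended on the fit. With the GC trend removed, the values were -0.00 for Fgfr1, -0.29 for Fgfr3 and -0.83 for Fgfr4 (edgeR adjusted p = 0.989, 0.367 and 0.144), their exons having 55.4%, 57.1% and 58.2% GC, and with the yolk sac marker level as a covariate they were -0.25, -0.46 and -0.76 (adjusted p = 0.142, 0.13 and 0.0884). No receptor passed without WT embryo 2 (-0.23, -0.60 and -1.02, with adjusted p = 0.0586, 0.0913 and 0.0781). None passed without Dnmt3b-/- embryo 2 (-0.30, -0.73 and -1.30) or without Dnmt3b-/- embryo 3 (-0.36, -0.48 and -0.98). Without Dnmt3b-/- embryo 2, calls over all genes fell as well, from 2654 to 1795 higher and from 2741 to 1791 lower. Within each genotype the embryos had the same order by Fgfr4 as by summed yolk sac markers. WT embryo 3, with less marker RNA (20970) than Dnmt3b-/- embryos 1 and 2 (41340 and 26710), had more Fgfr4 than either. The part of the marker level in the receptor values was not tested. Klb (beta-Klotho), the co-receptor that Fgf15 uses with Fgfr4, had 322, 1110 and 150 against 218, 191 and 46.3 normalized counts in the same embryos. Its log2 fold change of -1.79 ± 0.76 did not pass (adjusted p = 0.099), and was -0.17 with the marker level as a covariate.

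**Figure D4:**
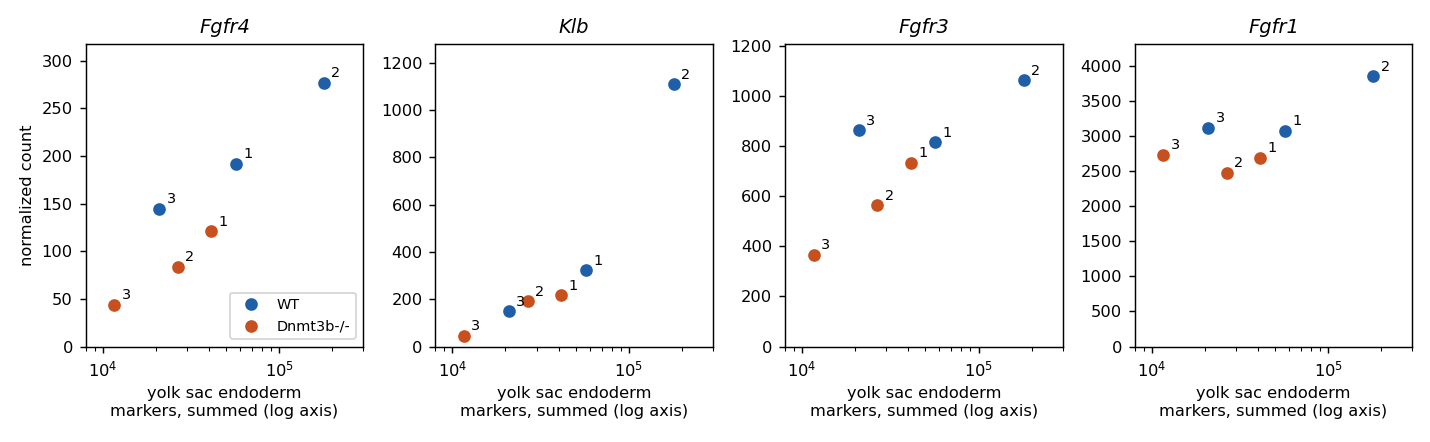
Normalized counts of Fgfr4, Klb, Fgfr3 and Fgfr1 in each embryo (numbered; WT blue, Dnmt3b-/- orange) against the summed normalized counts of 8 yolk sac endoderm markers on a log axis. WT embryo 2, at 180000, had the highest value of all 4 genes and Dnmt3b-/- embryo 3, at 11640, the lowest of Fgfr4, Klb and Fgfr3.

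Of the inhibitors, Spry1, Spred1 and Spred3 rose. Spry1, the Sprouty protein best known from kidney development (chromosome 3, 37639947 to 37644599, plus strand), had 1473, 1237 and 1399 normalized counts in WT and 1635, 2022 and 2590 in Dnmt3b-/- embryos. The groups did not overlap. The log2 fold change was 0.60 ± 0.16 (edgeR adjusted p = 0.0219), and 1.00 with the GC trend removed (adjusted p = 0.00968). It missed the threshold without Dnmt3b-/- embryo 3 (0.43, adjusted p = 0.0527), without Dnmt3b-/- embryo 2 (0.62, adjusted p = 0.061) and with the yolk sac marker level as a covariate (0.38, adjusted p = 0.118).

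Spry2, the Sprouty protein with the highest level in WT, moved the other way without passing. It had 1429, 1595 and 1520 normalized counts in WT and 1249, 1278 and 1271 in Dnmt3b-/- embryos. The mutants were nearly equal to each other and below every WT embryo. Its change was -0.26 ± 0.09 (edgeR adjusted p = 0.0568), and it passed in 4 of 17 other fits, among them the one with the GC trend removed (-0.45, adjusted p = 0.00584). Spry4, another feedback inhibitor of RAS signalling, had 597, 864 and 670 against 716, 672 and 1158 normalized counts, with overlap (0.26 ± 0.23, adjusted p = 0.417). The share of Spry1 in the summed FPKM of the Sprouty genes was 42.1%, 34.3% and 39.2% in WT and 46.6%, 51.8% and 54.8% in Dnmt3b-/- embryos, and that of Spry2 48.8%, 52.9% and 50.8% against 42.5%, 39.1% and 32.1%. Neither share overlapped, while the sum was 30.5 ± 0.21 and 32.8 ± 3.99 FPKM (SD, n = 3). These shares are parts of a sum and so move against each other, and they were not tested.

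Spred1 (chromosome 2, 117121071 to 117182279, plus strand), which recruits neurofibromin to shut off RAS, had 9248, 9751 and 8460 normalized counts in WT and 10800, 12560 and 14140 in Dnmt3b-/- embryos. Every mutant lay above every WT embryo. The log2 fold change was 0.45 ± 0.11 (edgeR adjusted p = 0.0126), but 0.13 with the GC trend removed (adjusted p = 0.284), its exons having 42.4% GC, and 0.43 (adjusted p = 0.0515) with the yolk sac marker level as a covariate.

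Spred3 (chromosome 7, 29157783 to 29170070, minus strand), a family member known from the brain, had 544, 578 and 451 normalized counts in WT and 697, 690 and 909 in Dnmt3b-/- embryos. The groups again did not overlap. Its log2 fold change was 0.55 ± 0.16 (edgeR adjusted p = 0.028) and 0.89 with the GC trend removed (adjusted p = 0.00922). It missed the threshold in 6 of 17 other fits, with adjusted p up to 0.0869, among them those without WT embryo 1 or 3 and without Dnmt3b-/- embryo 2 or 3. Spred2 had 941, 778 and 760 against 761, 828 and 933 normalized counts, with overlap (0.02 ± 0.13, adjusted p = 0.907). The summed level of the inhibitors was 67.1 ± 2.27 FPKM in WT and 78.3 ± 8.42 in Dnmt3b-/- embryos (SD, n = 3), and that of the secreted ligands 40.7 ± 1.41 and 43.2 ± 8.26.

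The rest of the pathway was described from a list of 49 genes by role, of which 48 were tested. Of these, 10 rose (20.8%) and 11 fell (22.9%), against 17.6% and 18.1% of all tested genes, with a median log2 fold change of -0.15. No classic transcriptional readout of FGF signalling among Dusp6, Etv4 and Etv5 passed the test. Dusp6, a phosphatase induced by ERK and used as a reporter of FGF activity, had a log2 fold change of 0.02 ± 0.09, Etv4 of 0.01 ± 0.28 and Etv5 of 0.06 ± 0.16, with edgeR adjusted p from 0.783 to 0.988.

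Of 8 transcriptional targets, 3 rose (37.5%) and 1 fell (12.5%), against 17.6% and 18.1% of all tested genes. Etv1, a transcription factor of the same group as Etv4 and Etv5, had 427, 617 and 428 normalized counts in WT and 805, 857 and 1140 in Dnmt3b-/- embryos. All mutants were higher (log2 fold change 0.93 ± 0.20, edgeR adjusted p = 0.00739). Flrt3, a membrane protein that binds FGF receptors, rose by 0.46 ± 0.11 (adjusted p = 0.0156), though by 0.09 without a call once the GC trend was removed. Ccnd1, a cyclin that drives entry into S phase, rose by 0.33 ± 0.11 (adjusted p = 0.0433) and passed in 1 of 6 fits with 1 embryo left out. Fos, an immediate early gene of the MAP kinase pathway, fell from 2285, 2431 and 2512 to 434, 756 and 549 normalized counts. This was a log2 fold change of -2.06 ± 0.19 (4.16-fold lower, adjusted p = 0.000491), and -1.98 with the GC trend removed. Egr1, another immediate early gene, lay below WT in all mutants (-0.62 ± 0.24) without passing (adjusted p = 0.078). Myc, a growth-promoting transcription factor, lay above WT in all mutants (0.34 ± 0.13) without passing (adjusted p = 0.0687), and passed with the GC trend removed (0.54, adjusted p = 0.0178).

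Of 19 adaptors and cascade members, 5 rose and 5 fell (26.3% each, against the same 17.6% and 18.1%). Those that rose included the RAS gene Nras (0.37 ± 0.07, edgeR adjusted p = 0.00444), the exchange factors Sos2 (0.63 ± 0.10) and Sos1 (0.43 ± 0.10) and the docking protein Frs2 (0.44 ± 0.12). Of these, Sos2 kept its call with the GC trend removed (0.40), while Nras, with 42.6% exonic GC, was then at 0.02, Frs2 at 0.24 and Sos1 at 0.20 without a call. Map2k2, a kinase that activates ERK, fell from 3892, 3500 and 3837 to 2113, 1832 and 1665 normalized counts. Its log2 fold change was -1.001 ± 0.10 (adjusted p = 0.000606), and -0.42 (adjusted p = 0.00416) with the GC trend removed, its exons having 60.2% GC. Plcg1, a phospholipase that binds the activated receptor, fell by 0.52 ± 0.09 and kept its call at -0.25. Shc1 and Grb2 fell by 0.26 and 0.25 and lost their calls there.

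Of 13 heparan sulphate and carrier genes, 1 rose (7.69%, against 17.6% of all tested genes) and 4 fell (30.8%, against 18.1%). The heparan sulphate polymerases Ext2 (-0.56 ± 0.11, edgeR adjusted p = 0.00564) and Ext1 (-0.21 ± 0.06) fell, as did the syndecans Sdc1 (-0.58 ± 0.09, adjusted p = 0.00214) and Sdc4 (-0.68 ± 0.18). Syndecan Sdc2 rose (0.35 ± 0.09), but stood at -0.01 with the GC trend removed, while the calls of the 4 genes that fell held there. Ext1 passed in 0 of 6 fits with 1 embryo left out, and Sdc4 was at -0.37 (adjusted p = 0.0701) with the yolk sac marker level as a covariate. The decoy receptor Fgfrl1 had a log2 fold change of -0.28 ± 0.15 (adjusted p = 0.188). Of 6 further negative regulators, 1 fell and 1 rose (16.7% each). Il17rd (Sef), which binds FGF receptors, fell by 0.43 ± 0.08 (adjusted p = 0.00437) and Rasa1, a RAS GTPase-activating protein, rose by 0.42 ± 0.07 (adjusted p = 0.00295). With the GC trend removed, Il17rd kept its call (-0.36) and Rasa1 did not (0.17, adjusted p = 0.0617).

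**Figure D5:**
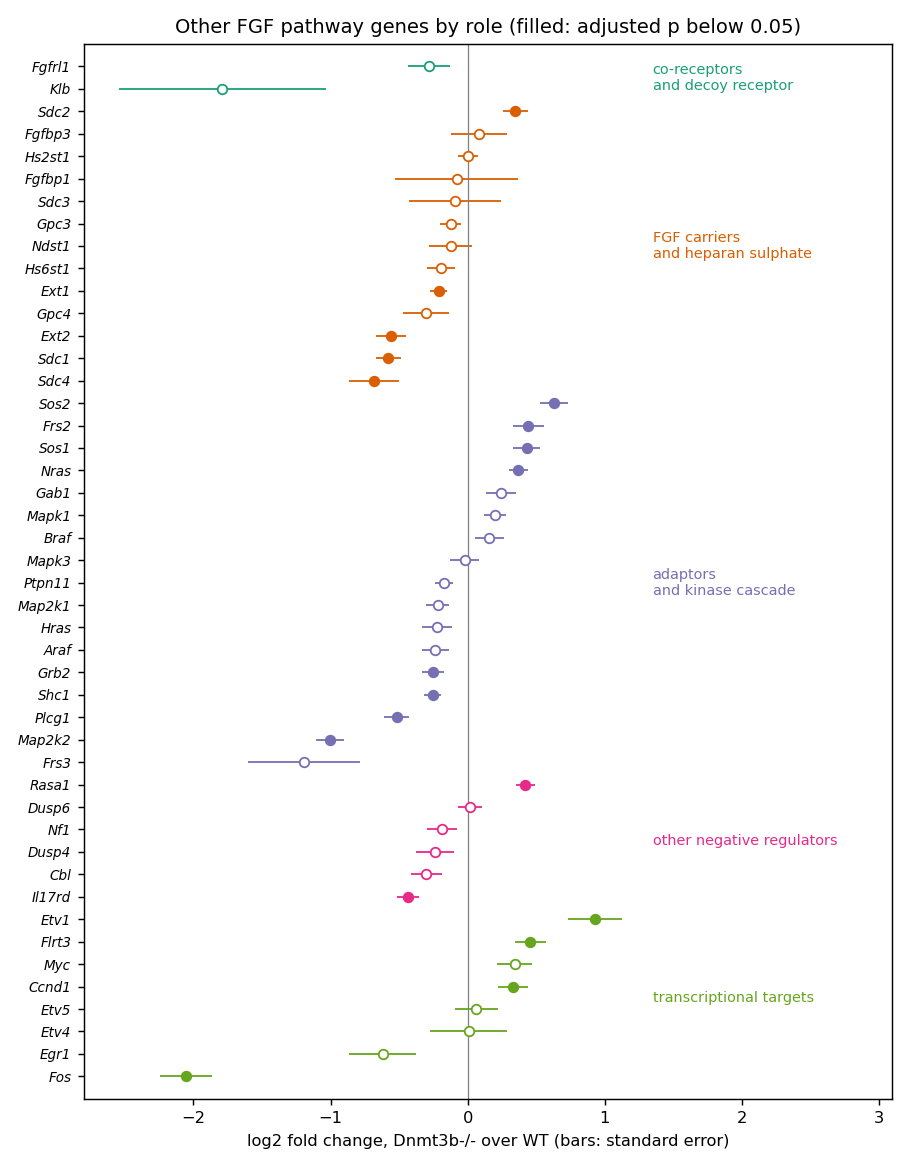
Log2 fold change of Dnmt3b-/- over WT for the tested other pathway genes reported here, grouped and coloured by role, with bars of 1 standard error and filled circles for an adjusted p below 0.05. Fos (-2.06) and Map2k2 (-1.001) are farthest below 0 among the filled circles and Etv1 (0.93) and Sos2 (0.63) farthest above.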

How the data were processed

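RNA-Seq was performed on 3 WT and 3 Dnmt3b-/- E8.5 embryos. Per the labels, the authors aligned reads to mm10 with TopHat2 2.0.12 and used HTSeq 0.6.0 to obtain the read counts per gene that they deposited. The normalized columns, a signal scaled from counts by the authors with DESeq2 1.4.5, were checked, and each was found to be the raw counts divided by 1 size factor per library. The deposited fold changes and adjusted p-values were not used. Which RefSeq release the reads were counted on, and with which strand option, is not given in the sources used here. Bisulfite libraries of the series were not analysed here.

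The 15114 genes averaging 10 or more raw reads over the embryos were fitted together by edgeR 4.0.16 (TMM scaling, quasi-likelihood test, Benjamini-Hochberg adjustment, R 4.3.3). Genotype was the only term, and a call is an adjusted p below 0.05. Normalized counts are raw counts scaled by TMM library size. Standard errors are of the log2 fold change. Exon lengths, GC content and coordinates came from RefSeq on GRCm38.p6 (the mm10 assembly), in which 99.2% of genes were matched, 22604 by symbol and 1259 by an older symbol. The GC and length correction removed a spline trend (5 degrees of freedom) from each library. DESeq2 1.42.0 and limma 3.58.1 (prior count 1) were alternatives. The main fit, the other scalings, the block, a covariate, DESeq2, limma and the GC correction were tried on simulated data. The other read filters and the fits with embryos left out were not. The replicates are separate littermate embryos, and 3 against 3 allows no exact permutation p under 0.1, so single values outside the fit carry no test. Same-numbered embryos did not deviate together and were not paired in the main fit.

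Every member was named. Of the other pathway genes reported here, those past the threshold were named, at most 4 per role and direction by size, plus Dusp6, Etv4, Etv5 and Fgfrl1. Egr1, Myc, Klb and some further cascade genes were named after their values were seen, and some pathway genes are not reported here. The members, gene lists and comparisons were chosen with earlier results of these data known.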

Additional observations from a re-analysis of the deposited data

How the results depend on the processing

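Members past the threshold numbered 5 higher and 3 lower. Without 1 embryo these were 3 to 6 higher and 0 to 2 lower, and the other pathway genes 7 to 11 higher and 7 to 12 lower against 10 and 11. Over all tested genes, calls without 1 embryo ran from 1795 to 2726 higher and from 1791 to 2660 lower, against 2654 and 2741. The lowest member counts came without Dnmt3b-/- embryo 2 or 3 (3 higher), and without WT embryo 2 or Dnmt3b-/- embryo 2 (0 lower). With a fold above 2 required there were 2 and 1 members and 0 and 2 pathway genes, and at an adjusted p below 0.01, 2 and 0 members and 5 and 6 pathway genes. Removing the GC and length trend left 1 member lower (Spry2, no longer a receptor), and 5 pathway genes higher. Over all genes this fit gave 1994 higher and 1818 lower. Alternatives added after seeing the data were the yolk sac marker level as a covariate (2 members higher, 0 lower, 6 pathway genes lower), the Xist level as a covariate (6 and 2 members), and WT embryo 2 and Dnmt3b-/- embryo 3 left out together (6 and 2 members). Over all genes these alternatives gave 1796, 2531 and 2535 higher and 1994, 2570 and 2723 lower, in this order. The cause of these shifts was not tested.

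Over 446 refits of single members, 364 kept direction and side of the threshold, 34 lost and 16 gained the call, and 32 changed sign, all of members without a call. Without 1 embryo the log2 fold changes ran from -0.57 to 0.18 for Fgf4, -0.021 to 0.16 for Fgf10, -0.53 to 0.44 for Fgf16, -0.14 to 0.16 for Fgf15, -0.66 to 0.38 for Fgf12, -0.018 to 0.42 for Spry4 and -0.043 to 0.13 for Spred2. With the GC trend removed the sign changed for Fgf3 (0.29), Fgf10 (-0.34) and Fgf16 (-0.17), and with total counts for Fgf16 (-0.037), Fgf15 (-0.061) and Spred2 (-0.057). The yolk sac covariate gave Fgf16 -0.42, Fgf15 -0.031 and Spred2 -0.044, the Xist covariate Fgf16 -0.013, Fgf15 -0.036 and Fgf12 0.24, and the 4 embryos Fgf16 -0.54, Fgf15 -0.066, Fgf12 0.087 and Spred2 -0.10. By limma Fgf16 was at -0.14.

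With the replicate number as a block there were 5 members higher and 2 lower, and Fgf16 was at -0.12. Same-numbered embryos had correlations of deviations from -0.15 to -0.01. These values cannot show whether same-numbered embryos were collected or processed together, and the main fit did not pair them. Total-count scaling shifted the median of all genes to -0.11. In WT levels, the choice of length moved Fgf13 to 2.03 and Spred1 to 31.0 FPKM. Members with few reads cannot be resolved at this depth.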
